A study of Mus musculus with 6 samples.

Results

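The 8 genes Tbr1, Sox5, Zfpm2, Nfia, Nfib, Ntsr1, Ppp1r1b and Rprm, used to recognise the corticothalamic neurons of cortical layer 6, were followed in cortex of newborn Fezf2 KO and wild type mice. They were taken by symbol from the deposited gene table, where each of the 8 matched 1 of the 23016 entries, and all 8 passed the filter on low values. RNA came from the cerebral cortex of 3 Fezf2 KO pups and 3 wild type pups at postnatal day 0, each brain giving 1 TruSeq library. Both genotypes were born to Fezf2+/- parents that were bred with each other, so the KO pups are Fezf2-/- and the wild type pups Fezf2+/+ offspring of the same kind of cross. Replicates 1 and 2 of each genotype belonged to litter m1, and replicate 3 to litter m2. The labels name no Cre and no cell type restriction, so with Fezf2+/- parents the KO allele is taken to be germline. Every cell of a KO pup would then carry it, inside and outside the cortex.

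Layer 6 corticothalamic neurons send their axons to the thalamus and, with the layer 5 neurons that reach the brainstem and spinal cord, make up the corticofugal output of the neocortex. Their identity is set by transcription factors that act while the neurons are young. TBR1 is a T-box factor that holds layer 6 neurons to the corticothalamic fate and represses subcerebral genes, Fezf2 among them. SOX5 is a SoxD factor that times the production of the successive corticofugal types, and FEZF2 is a zinc finger factor of deep-layer neurons needed for the subcerebral type. Zfpm2 encodes FOG2, a zinc finger cofactor of GATA and COUP-TF factors. Nfia and Nfib encode nuclear factor I proteins, which deep-layer neurons share with radial glia and astrocytes. Ntsr1 encodes a neurotensin receptor, Ppp1r1b the phosphatase inhibitor DARPP-32, and Rprm the p53-induced cell cycle inhibitor Reprimo.

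Of the 8 genes, 2 fell in Fezf2 KO cortex (Zfpm2 and Ppp1r1b), 0 rose and 6 did not pass, where 0.308% of all genes tested were lower and 0.404% higher. Zfpm2 reached 26.9% of its wild type mean and Ppp1r1b 40.55%. Tbr1, Sox5, Nfia, Nfib and Ntsr1 lay between 94.4% and 104.7% of their wild type means, and Rprm at 87.5%. The change of a gene is its log2 ratio, Fezf2 KO over wild type, on the normalised read count plus 1, and limma tested it over 17557 genes. Genes past a Benjamini-Hochberg adjusted p of 0.05 are called changed. The median log2 change was -0.06 over the 8 genes and 0.00 over all genes tested. In all 3 KO libraries Zfpm2, Ppp1r1b and Rprm lay below all 3 wild type libraries, as did 6.85% of the genes tested. Those 3 also had an unadjusted p under 0.05, as had 9.03% of the genes tested. Zfpm2 and Ppp1r1b were the genes of the 8 that passed in edgeR (0.689% of all genes called), in DESeq2 (2.3%), with litter as a block (0.786%) and with striatal genes as a covariate (0.228%), and Zfpm2 alone passed in litter m1 alone (0.165%). The genes were chosen with earlier results of these data known, so these counts describe them and do not compare them with other genes.

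**Figure D1:**
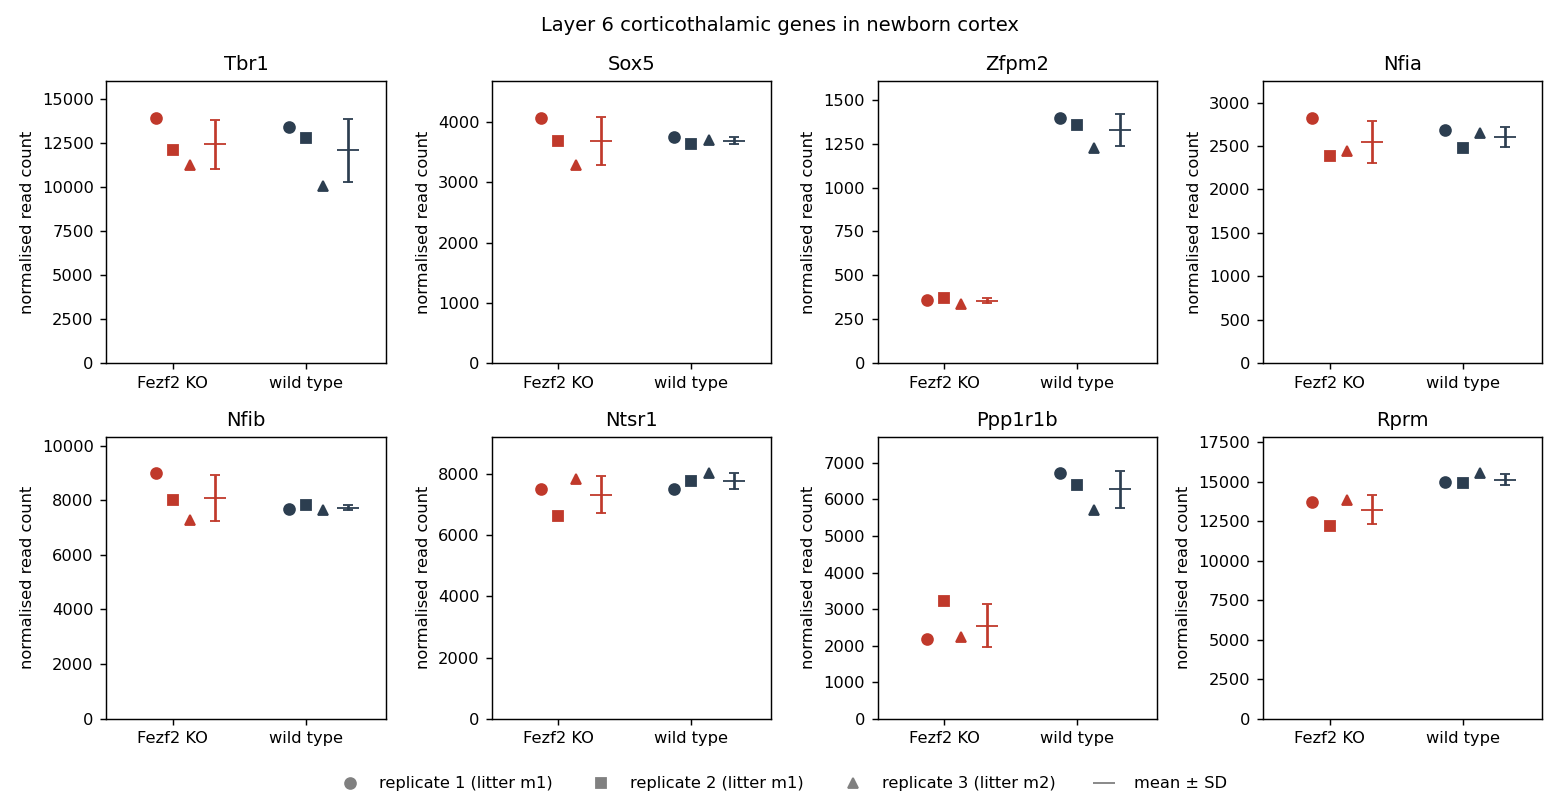
Normalised read count of each of the 8 genes (vertical axes, starting at 0, each with its own scale) in Fezf2 KO (left) and wild type (right) libraries. Marker shape gives the replicate and its litter, and the bar beside each group is the mean ± SD of 3 libraries. Zfpm2 and Ppp1r1b are well apart between genotypes, Rprm is apart by a small margin, and the other 5 overlap.

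The libraries held 44978380 to 52872577 reads in genes, with Fezf2 KO 1 the deepest. Fezf2 itself had 1989, 1377 and 1533 normalised reads in KO libraries 1, 2 and 3, against 5030.32, 5928 and 5396 in wild type libraries 1, 2 and 3 (log2 -1.75, SE 0.13, limma adjusted p = 0.000832). It fell without disappearing, and the sources used here do not describe which sequence the allele removes. Cortical markers were present in every library. Neurod6, a bHLH factor gene of cortical projection neurons, had 12476 to 15269 normalised reads in KO and 12003 to 12837 in wild type libraries. Of the 8 genes in that marker list, 0 changed by limma, 1 had an unadjusted p under 0.05 (Lhx2), and edgeR and DESeq2 called 0. The shares over all genes tested were 9.03% at an unadjusted p under 0.05, 0.689% called by edgeR and 2.3% by DESeq2. Limma called 0.308% lower and 0.404% higher. The 6 thalamic markers differed widely in level. Foxb1 was at 1.62 to 6.29 normalised reads in KO and 0 to 2.81 in wild type libraries, and Gbx2 at 1.62 to 22.45 in KO and 3.44 to 22.46 in wild type libraries. Prkcd, the highest of them, was at 2091 to 2200.2 in KO and 2160 to 2350 in wild type libraries. In RNA from whole cortex, fewer cells of a type and less RNA per cell cannot be told apart.

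Among the transcription regulators, Zfpm2 separated the genotypes. It had 359.7, 371 and 338 normalised reads in KO libraries 1, 2 and 3, against 1397, 1357 and 1225 in wild type libraries 1, 2 and 3. The KO libraries lay close together at 356 ± 16.6 (SD, n = 3) and the wild type libraries at 1326 ± 90.2, with no overlap. The log2 change was -1.89 (SE 0.08, 95% interval -2.08 to -1.70, limma adjusted p = 4.73e-05), a 3.71-fold lower level. Within litter m1, which gave 2 libraries of each genotype, the change was -1.91 (limma adjusted p = 0.004). Litter m2 gave 1 library of each and allows no test.

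Tbr1, the factor most closely tied to corticothalamic fate, did not separate the genotypes. It had 13929, 12109 and 11233 normalised reads in KO libraries 1, 2 and 3, against 13409.5, 12772 and 10058 in wild type libraries 1, 2 and 3. The lowest library of all was wild type 3, the highest was Fezf2 KO 1, and the groups overlapped throughout. The log2 change was 0.05 (SE 0.12, limma adjusted p = 0.963), and its 95% interval ran from -0.22 to 0.31, a KO level of 0.859 to 1.24 times wild type.

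Sox5 had 4069, 3690.05 and 3278 normalised reads in KO libraries 1, 2 and 3, against 3747, 3632 and 3698 in wild type libraries 1, 2 and 3. The wild type libraries sat inside the range of the KO libraries, and the coefficient of variation was 10.8% in KO and 1.56% in wild type. The log2 change was -0.01 (95% interval -0.19 to 0.17, limma adjusted p = 0.990). With 3 libraries in each genotype the difference in spread was not tested.

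Neither nuclear factor I gene passed the test. Nfia had 2826, 2381 and 2439 normalised reads in KO libraries 1, 2 and 3, against 2689, 2475 and 2651 in wild type libraries 1, 2 and 3 (log2 -0.03, 95% interval -0.21 to 0.14, limma adjusted p = 0.955). Nfib had 8987, 7996 and 7287 in KO libraries 1, 2 and 3, against 7694, 7824 and 7659 in wild type libraries 1, 2 and 3 (log2 0.06, 95% interval -0.11 to 0.23, limma adjusted p = 0.907). In both genes the groups overlapped and Fezf2 KO 1 was the highest of all 6 libraries. That library was also the highest for Tbr1 and Sox5, so the 4 regulators that did not pass share their top library. This was not particular to them. The cortical markers also summed highest in Fezf2 KO 1, at 105655 normalised reads against 90054.5 to 100469 in the other libraries. Of those markers, Neurod1 and Slc17a7 were instead lowest in Fezf2 KO 1. The other nuclear factor I genes did not pass either, with log2 0.06 (-0.07 to 0.19) for Nfic and 0.01 (-0.13 to 0.14) for Nfix. Because progenitors and astrocytes also transcribe Nfia and Nfib, their markers were read alongside. Of 8 radial glia genes and 8 astrocyte genes, 0 changed in either list by limma, edgeR or DESeq2, and 1 in each had an unadjusted p under 0.05. Those were Hopx (log2 0.32) and Gja1 (log2 -0.68), whose limma adjusted p were 0.334 and 0.479. Among all genes tested 9.03% had an unadjusted p under 0.05. Limma called 0.308% of all genes lower and 0.404% higher, edgeR called 0.689% and DESeq2 2.3%.

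Among the signalling genes, Ntsr1 had overlapping groups. It had 7523, 6648 and 7828 normalised reads in KO libraries 1, 2 and 3, against 7501.5, 7769 and 8028 in wild type libraries 1, 2 and 3. Fezf2 KO 2 was the lowest library and wild type 3 the highest. The log2 change was -0.09 (SE 0.07, 95% interval -0.24 to 0.07, limma adjusted p = 0.817). It was -0.0168 without Fezf2 KO 2, -0.135 without Fezf2 KO 3 and -0.21 with striatal genes as a covariate, and it passed in none of the 3 (lowest limma adjusted p = 0.502).

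Rprm had 13673, 12173 and 13817 normalised reads in KO libraries 1, 2 and 3, against 14944, 14887 and 15516 in wild type libraries 1, 2 and 3. Every KO library was below every wild type library, and Fezf2 KO 2 was the lowest, as it was for Ntsr1. The log2 change of -0.20 (SE 0.06, 95% interval -0.32 to -0.07) had an unadjusted p of 0.00757 and did not pass over all genes (limma adjusted p = 0.259). DESeq2 on the recovered reads gave the nearest value to the threshold among the alternatives, an adjusted p of 0.0925. With striatal genes as a covariate the change was -0.31 (limma adjusted p = 0.152). The interval corresponds to a KO level of 0.7996 to 0.954 times wild type.

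Ppp1r1b had 2178, 3219 and 2244 normalised reads in KO libraries 1, 2 and 3, against 6715, 6407 and 5718 in wild type libraries 1, 2 and 3. The groups were far apart, and Fezf2 KO 2 stood above the other KO libraries. The means were 2547 ± 583 in KO and 6280.03 ± 510.3 in wild type (SD, n = 3 each), a log2 change of -1.32 (SE 0.14, 95% interval -1.65 to -0.995, limma adjusted p = 0.00594). In litter m1 alone the log2 change was -1.31 and did not pass (limma adjusted p = 0.123).

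**Figure D2:**
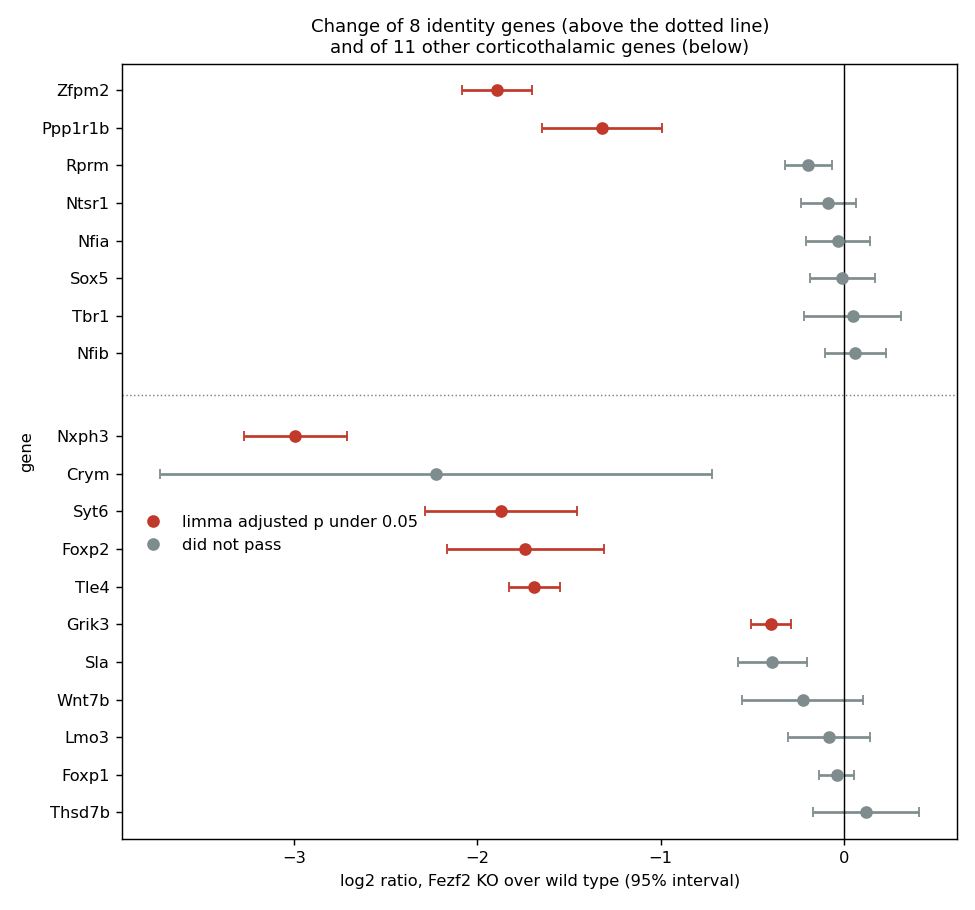
Log2 ratio of Fezf2 KO to wild type (horizontal axis) with its 95% interval for the 8 identity genes above the dotted line and 11 other corticothalamic genes below it, ordered within each block. Zfpm2 (-1.89) and Ppp1r1b (-1.32) stand apart from the 6 genes between -0.20 and 0.06, and in the lower block Nxph3, Syt6, Foxp2, Tle4 and Grik3 passed the test.

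Ppp1r1b is also a leading gene of striatal projection neurons, which lie under the cortex, and many but not all striatal markers were lower in KO with it. The 13 striatal genes in the table, Ppp1r1b not counted, summed to 8912, 14917 and 10124 normalised reads in KO libraries 1, 2 and 3, against 17853, 15476 and 14281 in wild type libraries 1, 2 and 3. Fezf2 KO 2 was thus the KO library nearest to wild type in both, and its striatal sum exceeded that of wild type 3, whereas its Ppp1r1b value was 3219 against 5718 there. The median log2 change of the 13 genes was -1.27, none was at 0 in any library, and 7 lay lower in every KO library than in any wild type library. The genes did not move alike. Their log2 changes ran from -2.03 for Isl1 to 0.03 for Rgs9, with Drd1a at -0.22, Pde10a at -0.26 and Gpr6 at -0.30. By limma 0 of them changed, with 11 at an unadjusted p under 0.05, 0 called by edgeR and 1 (Penk) by DESeq2. Of all genes tested, 6.85% had every KO library below every wild type library and 9.03% had an unadjusted p under 0.05. DESeq2 called 2.3% of all genes. Penk had 206 ± 87.2 normalised reads in KO and 514 ± 158 in wild type, and Six3 186 ± 122 in KO and 433 ± 95.2 in wild type (SD, n = 3 each). When limma was given the mean log2 level of the 13 genes as a covariate, the change was -0.94 for Ppp1r1b (adjusted p = 0.0229) and -1.83 for Zfpm2 (adjusted p = 0.00228). That level, centred for each gene, was 0.30 to 0.76 in wild type libraries and -1.27, 0.32 and -0.57 in KO libraries 1, 2 and 3. It thus goes in part with genotype, and the fit separates the 2 only in part. Without Fezf2 KO 2 and without the covariate, the change of Ppp1r1b was -1.50 (limma adjusted p = 0.000305). The part of striatal tissue in the fall of Ppp1r1b was not tested.

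A second limit on Ppp1r1b is an assembled transcript on its opposite strand, linc-Ppp1r1b-AS, since the sources used here do not say whether counting used strand, and reads of overlapping genes could be shared. It had 220.04, 328 and 240.2 normalised reads in KO libraries 1, 2 and 3, against 727, 683 and 603 in wild type libraries 1, 2 and 3. It followed Ppp1r1b closely, at 10.1% to 10.7% of its value in KO libraries and 10.55% to 10.8% in wild type libraries (log2 -1.37, limma adjusted p = 0.00701). Another transcript named for the gene, linc-Ppp1r1b-1, had 34.9 ± 16.5 normalised reads in KO and 62.4 ± 7.32 in wild type. It did not pass (log2 -0.95, limma adjusted p = 0.488). The transcripts named linc-Nfia-AS were scarce, at most 19.4 normalised reads in any library, beside 2381 for Nfia in its lowest library.

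**Figure D3:**
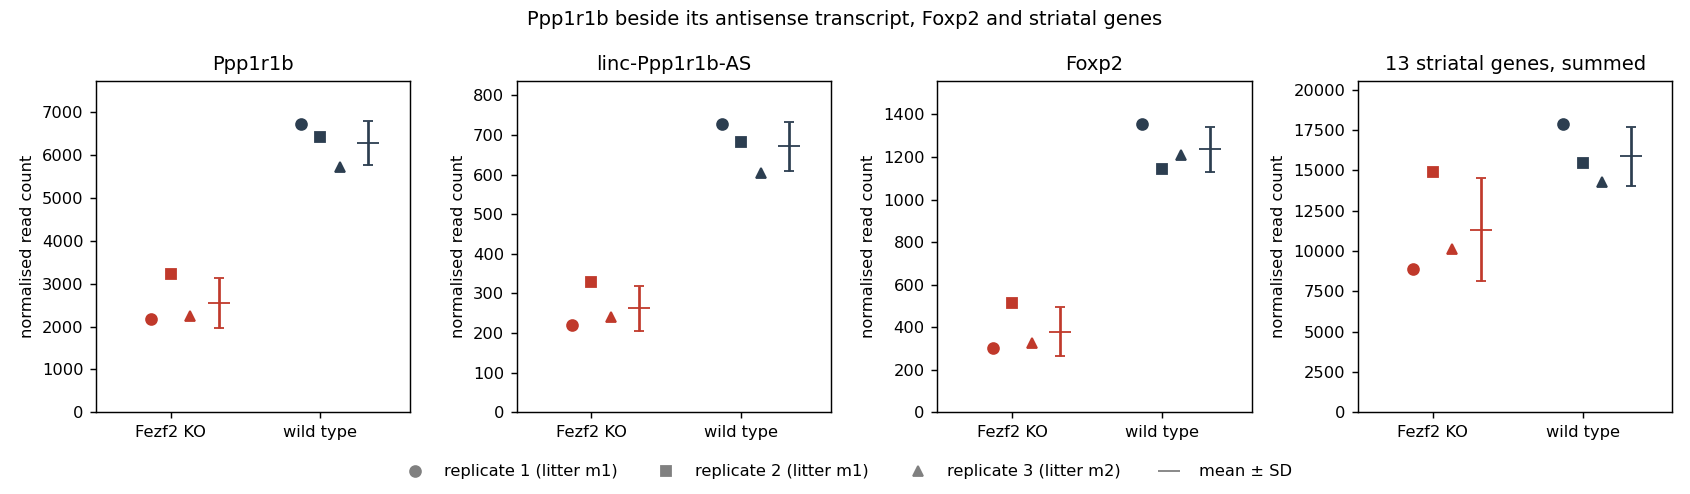
Normalised read count (vertical axes, starting at 0) of Ppp1r1b, its antisense transcript, Foxp2 and the sum of 13 striatal genes in Fezf2 KO (left) and wild type (right) libraries, with mean ± SD of 3 libraries per group. Fezf2 KO 2 is the highest KO library in all 4 panels, and only for the striatal sum does it reach the wild type range (14917 against 14281 to 17853).

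Ratios within a library remove the size factor, so each gene was also set against Tbr1 in the same library. Zfpm2 had log2 ratios of -5.27, -5.03 and -5.05 to Tbr1 in KO libraries 1, 2 and 3, against -3.26, -3.23 and -3.04 in wild type libraries 1, 2 and 3. The groups did not overlap. Ppp1r1b had -2.68, -1.91 and -2.32 in KO libraries 1, 2 and 3, against -0.998, -0.995 and -0.815 in wild type libraries 1, 2 and 3, again with no overlap. Differences of the mean log2 ratio, KO minus wild type, were -1.94 for Zfpm2 and -1.37 for Ppp1r1b, and for the other 5 genes they lay between -0.24 (Rprm) and 0.02 (Nfib). An exact two-sided permutation test over the 6 libraries gave p = 0.1 for Zfpm2 and Ppp1r1b, the smallest that 3 against 3 allows, and an adjusted p of 0.35 over the 7 ratios compared. For Sox5, Nfia, Nfib, Ntsr1 and Rprm the groups overlapped (exact permutation p from 0.3 to 1). Tbr1 was lowest in litter m2 in both genotypes, and the ratios of Nfia, Ntsr1 and Rprm to it were highest there in both. Among wild type libraries all 7 ratios were highest in litter m2.

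**Figure D4:**
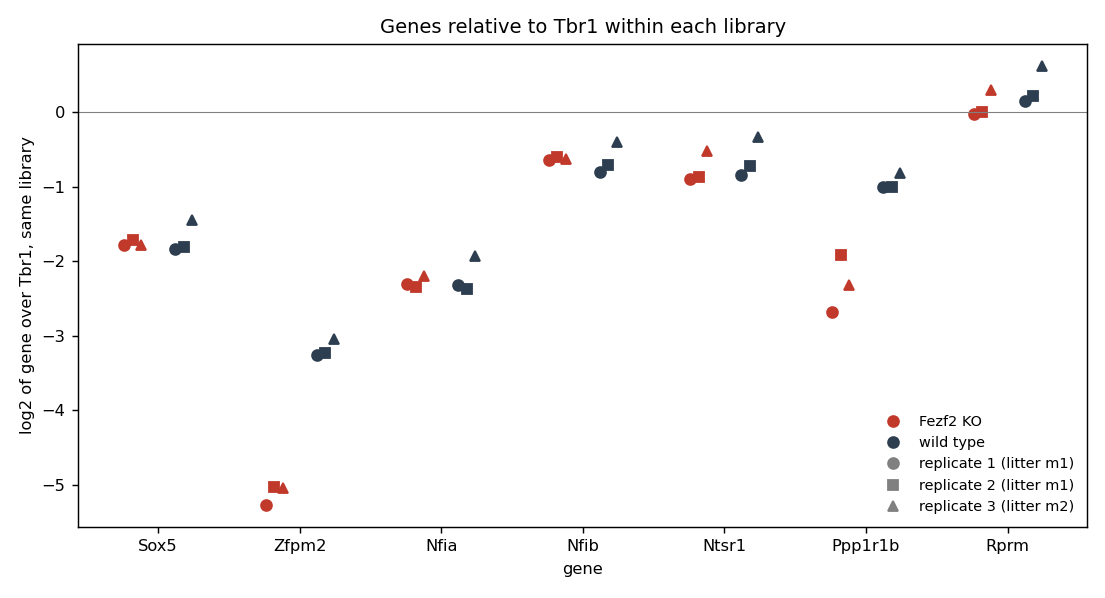
Log2 ratio of each gene to Tbr1 in the same library (vertical axis) for 7 genes, with Fezf2 KO libraries to the left of wild type libraries and marker shape giving the replicate. Zfpm2 lies between -5.27 and -5.03 in KO and between -3.26 and -3.04 in wild type, Ppp1r1b is also separated, and the other 5 genes overlap.

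Levels of different genes were compared per kilobase, using the summed exon length of each gene in GENCODE M21 (GRCm38, while the notes name mm9, so lengths are approximate). Rprm was the highest of the 8 in both genotypes, at 9055 ± 624 normalised reads per kilobase in KO and 10353 ± 238 in wild type (SD, n = 3 each). Tbr1 was next, at 3037 ± 336 per kilobase in KO and 2953 ± 435 in wild type. In wild type the third was Ppp1r1b (2439.8 ± 198 per kilobase), whose libraries overlapped those of Tbr1, followed by Ntsr1 (1983 ± 67.2). In KO cortex those places were exchanged, with Ntsr1 at 1872 ± 156 per kilobase and Ppp1r1b at 989 ± 226, whose libraries overlapped those of Nfib (876 ± 92.5 in KO). Sox5, Nfia and Zfpm2 came last in that order in both genotypes, and Zfpm2 had 56.1 ± 2.62 per kilobase in KO and 209 ± 14.2 in wild type. The lowest Nfia library was still above the highest Zfpm2 library in wild type, 259.7 against 220.1 per kilobase.

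Over the 6 libraries, the entries whose log2 values followed Zfpm2 most closely were Tle4, a Groucho-family corepressor (Pearson's r = 0.9983), the neurotrophin receptor gene Ngfr (r = 0.9972) and Fam110b (r = 0.9965). Ppp1r1b was followed most closely by linc-Ppp1r1b-AS (r = 0.9991), the forkhead gene Foxp2 (r = 0.9955) and the synaptotagmin gene Syt6 (r = 0.9936). These r are descriptions, since libraries that fall into the same 2 separate groups in each gene give a high r by themselves. The size of the change differed among them, from log2 -3.04 for Ngfr to -0.38 for Fam110b. Foxp2 had 301, 512 and 325 normalised reads in KO libraries 1, 2 and 3, against 1354, 1146 and 1207 in wild type libraries 1, 2 and 3. Its highest KO library was Fezf2 KO 2, as for Ppp1r1b.

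Other genes of corticothalamic neurons, from a list drawn up with earlier results known, fell in part as well. Of 11 tested, 5 fell, 0 rose by limma and 6 did not pass, with a median log2 of -0.40 against 0.00 over all genes tested. By edgeR 5 were called, by DESeq2 6 with Sla added, and 7 had an unadjusted p under 0.05. Among all genes tested limma called 0.308% lower, edgeR called 0.689%, DESeq2 2.3%, and 9.03% had an unadjusted p under 0.05. Crym did not pass, though every KO library lay below every wild type library (log2 -2.22, 95% interval -3.73 to -0.72, limma adjusted p = 0.278). The neurexin ligand gene Nxph3 had 787 ± 151 normalised reads in KO and 6199 ± 255 in wild type (log2 -2.99, limma adjusted p = 3.63e-05). Tle4 had 2003 ± 114 in KO and 6457 ± 295 in wild type (log2 -1.69, limma adjusted p = 3.63e-05). Syt6 (log2 -1.87) and Foxp2 (log2 -1.74) fell too, with 95% intervals of -2.29 to -1.46 and -2.17 to -1.31 that hold the -1.89 of Zfpm2. The kainate receptor gene Grik3, which is named for the count of 5, fell by less (log2 -0.40). With striatal genes as a covariate Nxph3, Tle4, Syt6 (log2 -1.41) and Foxp2 (log2 -1.24) still passed. Grik3 then did not (log2 -0.33, limma adjusted p = 0.14), and with another gene of the list passing the count stayed at 5. The part of striatal tissue in these falls was not tested. The count was 7 when Fezf2 KO 1 was left out, 4 when either wild type 2 or Fezf2 KO 3 was, and 2 within litter m1.

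None of the closest relatives of the 8 genes passed the test. Of 10 tested (Eomes, Tbx21, Sox6, Sox13, Zfpm1, Nfic, Nfix, Ntsr2, Ppp1r1a and Rprml), 0 passed limma, 1 had an unadjusted p under 0.05, and edgeR and DESeq2 called 0. These counts are near the shares over all genes tested, 9.03% at an unadjusted p under 0.05, 0.689% called by edgeR and 2.3% by DESeq2. By limma 0.308% were lower and 0.404% higher. Sox6, the SoxD relative of Sox5, had 1762 ± 212 normalised reads in KO and 1454 ± 105 in wild type (log2 0.27, limma adjusted p = 0.427). Zfpm1, which encodes FOG1, had 2177 ± 174 in KO and 1903 ± 291 in wild type (log2 0.20, 95% interval -0.05 to 0.45), an interval that does not meet that of Zfpm2. Ntsr2, the second neurotensin receptor gene, had 144 ± 13.4 in KO and 176 ± 29.7 in wild type (log2 -0.28, limma adjusted p = 0.678). Rprml, the relative of Rprm, had 652, 1792 and 1202 normalised reads in KO libraries 1, 2 and 3, against 1741, 1858 and 1435 in wild type libraries 1, 2 and 3, the same order of KO libraries as the striatal sum.

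Genes whose products work with these proteins were read in the same fit. Of 14 tested, 0 changed by limma, edgeR or DESeq2, and 2 had an unadjusted p under 0.05, the COUP-TFI gene Nr2f1 (log2 0.26, limma adjusted p = 0.353) and the neurotensin gene Nts. Among all genes tested 9.03% had an unadjusted p under 0.05. Limma called 0.308% of them lower and 0.404% higher, edgeR called 0.689% and DESeq2 2.3%, so few calls are to be looked for in a list this short. Nts, the ligand of the Ntsr1 receptor, had 14.6, 98.8 and 125 normalised reads in KO libraries 1, 2 and 3, against 226, 391 and 166 in wild type libraries 1, 2 and 3 (log2 -2.08, 95% interval -3.74 to -0.43, limma adjusted p = 0.385). Its KO libraries were all below its wild type libraries, and Fezf2 KO 1 was far below the other KO libraries. The protein phosphatase 1 catalytic genes that DARPP-32 acts on, Ppp1ca, Ppp1cb and Ppp1cc, had log2 changes of 0.01, -0.03 and 0.09.

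Genes known to respond to loss of Tbr1 in cortex were read beside Tbr1. Of 5 tested, 0 changed by limma, edgeR or DESeq2 and 1 had an unadjusted p under 0.05. That was Bcl11b, the subcerebral factor CTIP2, with 7468 ± 2132 normalised reads in KO and 13030.25 ± 1519 in wild type (log2 -0.84, limma adjusted p = 0.114). KO libraries 1, 2 and 3 had 5534, 9755 and 7116 normalised reads of Bcl11b, the same order as their striatal sums. Auts2, which TBR1 activates, had 14031 ± 982 in KO and 12895 ± 1196 in wild type (log2 0.12, 95% interval -0.06 to 0.30). Among 10 regulators of projection neuron fate, 1 fell (Fezf2) and 1 rose, the deep-layer homeobox gene Otx1 (log2 0.58, limma adjusted p = 0.035). In that list 6 had an unadjusted p under 0.05, and edgeR and DESeq2 each called 2, Fezf2 and Otx1. The shares over all genes tested were 9.03% at an unadjusted p under 0.05, 0.689% called by edgeR and 2.3% by DESeq2. By limma they were 0.308% lower and 0.404% higher.

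Subplate neurons, which lie just under layer 6 and also transcribe Tbr1, gave a mixed set. Of 9 subplate genes 5 fell and 0 rose by limma (edgeR called 5, DESeq2 7, and 8 had an unadjusted p under 0.05), with a median log2 of -0.60. Over all genes tested limma called 0.308% lower and 0.404% higher, edgeR called 0.689%, DESeq2 2.3%, and 9.03% had an unadjusted p under 0.05. The genes that DESeq2 added were both higher in KO, Nr4a2 (log2 0.64, limma adjusted p = 0.237) and Cdh10 (log2 0.36, limma adjusted p = 0.0791), and each had every KO library above every wild type library. Cplx3 had a log2 change of -2.62, Nxph4 -0.97, Tmem163 -0.60 and Ctgf -1.57, while Tbr1 stood at 0.05. The other that fell was Trh (log2 -1.20, limma adjusted p = 0.0445), named for the count of 5, and with litter as a block it did not pass (adjusted p = 0.0578). Of the other markers, the 5 thalamic genes tested had a median log2 of -0.05, with 0 changed by limma, edgeR or DESeq2 and 0 at an unadjusted p under 0.05. Of 9 entries for interneuron genes 1 rose by limma, edgeR too, and 2 by DESeq2. It was Npy (log2 0.69, limma adjusted p = 0.0402), a call lost once litter was a block (adjusted p = 0.0686).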

How the data were processed

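Per the labels, cortical RNA of 3 Fezf2 KO and 3 wild type newborn mice was sequenced on a Genome Analyzer II, and the submitters' processing notes list the tools STAR, Bowtie and DESeq and the build mm9, giving no versions or settings. The authors deposited a signal per gene, read counts divided by 1 size factor per library, scaled neither to a fixed library total nor to gene length. All values (100%) were whole multiples of 1 read within 0.006, which gave back 44978380 to 52872577 reads per library. The 17557 genes that reached a value of 10 in 3 or more libraries entered limma with a variance trend on log2(value + 1), with genotype as the single term and p adjusted over all of them. The number of libraries limits the precision. Litter, from the labels, served as a replicate block in an alternative fit, and edgeR, DESeq2 and limma-voom were run on the recovered reads. On simulated counts for this comparison (17557 genes, 200 changed, 5 runs) limma recovered 52% of 1.5-fold and 77.8% of 2-fold changes, with 6.73% false among its calls, and edgeR recovered 52.4% and 78.2%. The versions used were DESeq2 1.42.0, edgeR 4.0.16 and limma 3.58.1 in R 4.3.3, with pandas 2.3.3 and numpy 2.4.6 in Python 3.11.15.

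The genes and lists were chosen with earlier results of these data known. Named genes were the 8 genes, Fezf2, the 3 entries nearest in pattern to each changed gene, and from each list up to 4 changed genes or 2 given as values. Others are named where a count or marker needs them. Hs3st4, Gata4 and Syndig1l found no entry by symbol. Isoforms and sequences were not analysed here. A cortical marker of the original list is not reported here.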

Additional observations from a re-analysis of the deposited data

How the results depend on the processing

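Over 16 alternatives the number of changed genes among the 8 was 2 in 15 and 1 in litter m1 alone, which holds 2 libraries per genotype, and 2 to 2 with any 1 library left out. Zfpm2 passed in all 16 (log2 -1.95 to -1.83, adjusted p up to 0.004). Ppp1r1b passed in 15 (log2 -1.50 to -0.94), with adjusted p of 0.000305 to 0.0363 when 1 library was left out. Fezf2 also missed the threshold in litter m1 alone (adjusted p = 0.0595). Litter as a replicate block left 2 genes changed, with adjusted p of 8.45e-05 for Zfpm2 and 0.00894 for Ppp1r1b, and changed no call among the 8, while Npy and Trh lost theirs. Scaling to the library's total reads moved the median of all genes by under 0.1, changed no call among the 8 and gave 124 calls over all genes, against 125.

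Genes near 0 changed sign without passing anywhere, and the cause was not tested. In litter m1 alone the log2 change was -0.011 for Tbr1, 0.071 for Sox5 and 0.0078 for Nfia, and with the striatal covariate it was -0.0278 for Nfib. Leaving out 1 library gave -0.0808 to 0.127 for Tbr1, -0.086 to 0.0698 for Sox5, -0.111 to 0.0121 for Nfia and -0.0173 to 0.134 for Nfib. Ntsr1 kept its direction at -0.135 to -0.0168, as did Rprm at -0.228 to -0.137. Ratios to Tbr1 changed sign too, to 0.082 for Sox5 and 0.0188 for Nfia in litter m1 alone. Leaving out 1 library, the difference in log2 ratio ran from -0.127 to 0.0714 for Sox5, -0.163 to 0.059 for Nfia, -0.0684 to 0.136 for Nfib and -0.25 to 0.0193 for Ntsr1. Those of Zfpm2 (-1.98 to -1.86), Ppp1r1b (-1.56 to -1.18) and Rprm (-0.344 to -0.0955) kept their direction.

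Among the other named genes, Otx1 and Npy passed in 9 of 16 alternatives, Trh in 6, Tmem163 in 10, Ctgf in 11 and Grik3 in 12. With the pseudocount at 0.5 or with no filter on low values, no gene of the 8 changed its side of the threshold. DESeq2 called 403 genes against 125 by limma, litter m1 alone 29, the striatal covariate 40, and leaving out 1 library 61 (Fezf2 KO 3) to 119. A p that misses the threshold with 3 libraries per genotype does not show equal levels, and the intervals given bound what these libraries allow.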
